A study of Mus musculus with 8 samples.

Results

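Most of the genes described here, measured in male germ cells, handle glutathione, thiol-based redox repair or other defence against oxidants. They include enzymes that make and recycle glutathione, glutathione transferases and peroxidases, peroxiredoxins, thioredoxins and their reductases, glutaredoxins and methionine sulfoxide reductases. Superoxide dismutases, catalase, Nqo1 and the haem oxygenases are also among them. These genes were picked by a pattern of gene symbols, which was set when earlier results from the same data were already known. Values of all transcripts of a gene were added up. Genes whose 8 libraries had a mean under 1 FPKM were left out. FPKM is a count of fragments scaled to transcript length and to the size of the library, so levels of different genes are per length. Of 68 genes whose symbol matched, 61 reached that mean, out of 17589 genes in the table, of which 13483 reached it. The pattern also takes genes that carry thioredoxin in their name but act elsewhere, such as Txnl4a, a component of the spliceosome. Just inside the limit was Mgst2, with 1.02 FPKM in KDM1A KO and 1.06 FPKM in Control libraries, and just outside it were Glrx, with 1.12 and 0.404 FPKM, and Msrb3, with 1.03 and 0.384 FPKM.

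Glutathione is a small cysteine-containing peptide that cells keep mostly reduced. Peroxidases and transferases spend it on peroxides and on reactive lipids or toxins, and glutathione reductase restores it with NADPH. Thioredoxin and its reductase form a parallel route that feeds the peroxiredoxins and the methionine sulfoxide reductases, which undo oxidation of methionine in proteins. In the testis this system is known for guarding germ cells against lipid peroxidation and for the peroxidase Gpx4, which later becomes a structural protein of sperm mitochondria. The transcription factor NRF2, encoded by Nfe2l2 and held in check by Keap1, is known to raise many of these genes through antioxidant response elements.

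RNA was measured in mRNA libraries of spermatogonia, the mitotic male germ cells, from C57BL/6 mice at 6 days after birth. The KDM1A KO group held 4 libraries and the Control group 4, and mice of both groups carried GOF/deltaPE-Oct4/GFP, a fluorescent reporter of the germ cell gene Oct4, by which the cells were sorted. KDM1A, also called LSD1, removes methyl groups from histone H3 lysine 4, and the labels call the knockout conditional. The sources used here do not give the Cre driver, the floxed allele or whether the controls carry either. Nothing in the labels says that each library is a different animal, so the p-values speak of the spread among these 8 samples, and that spread may be partly technical.

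Kdm1a itself, the targeted gene, had 14.2, 14.1, 17.3 and 14.9 FPKM in KDM1A KO libraries 1 to 4, against 53.7, 54.0, 92.0 and 48.1 FPKM in Control libraries 1 to 4 (log2 change -1.92, SE 0.18, adjusted p = 6.88e-05), so each library matched its label while transcript remained. Depth was read from the smallest steps in the FPKM of weakly expressed genes, at 45500000 to 63250000 fragments in KDM1A KO and 61000000 to 67250000 in Control libraries. A single small RNA gene, Mir5105, took 29.4% to 52.7% of the summed FPKM in KDM1A KO libraries and 61.3% to 77.1% in Control libraries, and scaling every library to the same total moved the median log2 change of all genes to 0.74, from 0.09 as deposited. Among all genes tested 3417 rose (25.3%) and 1635 fell (12.1%) by limma at a Benjamini-Hochberg adjusted p under 0.05. KDM1A KO replicate 2 stood apart: relative to the median of the other KO libraries its median log2 value was 0.39 for all genes with a main transcript under 1000 bases, -0.19 for those of 3000 bases or more, and 0.36 for the redox genes. Germ cell genes Ddx4 (181 to 191 FPKM in KDM1A KO, 176 to 216 in Control) and Dazl (430.0 to 469 and 368 to 435 FPKM) were high in all 8 libraries. They come from a list of 14 germ cell genes, of which 1 rose and 4 fell in KDM1A KO.

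Of the 61 redox genes, 25 rose in KDM1A KO spermatogonia, against a background of 25.3% of all genes tested, and 7 fell, against 12.1%. That is 41.0% of the redox genes higher and 11.5% lower, and 29 were not called. Of those 29, an unadjusted limma p under 0.05 was found for Sod2 (0.0315, lower), Txndc12 (0.0261, higher) and Txnl4a (0.0301, higher), and for no other. The median log2 change of the 61 genes was 0.24, beside 0.09 over all genes. In 23 of the 61 all KO values lay above all Control values, where 26.1% of all genes did so, and in 6 below, where 12.5% did. The change was uneven by role: glutathione transferases were the largest group of rises, at 11 of 25, while glutathione reductase, glutathione synthetase, both pi-class transferases and Gpx4 were among the falls. Without KDM1A KO replicate 2, 27 rose (28.6% of all genes did) and 8 fell (15% of all genes). With each library centred within bins of transcript length, an alternative chosen after the data had been seen, 20 rose (21.8%) and 11 fell (20.8%), with median-ratio scaling 19 rose (17.7%) and 8 fell (20.6%), and with libraries scaled to equal totals 50 rose (70.8%) and 1 fell (1.12%).

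**Figure D1:**
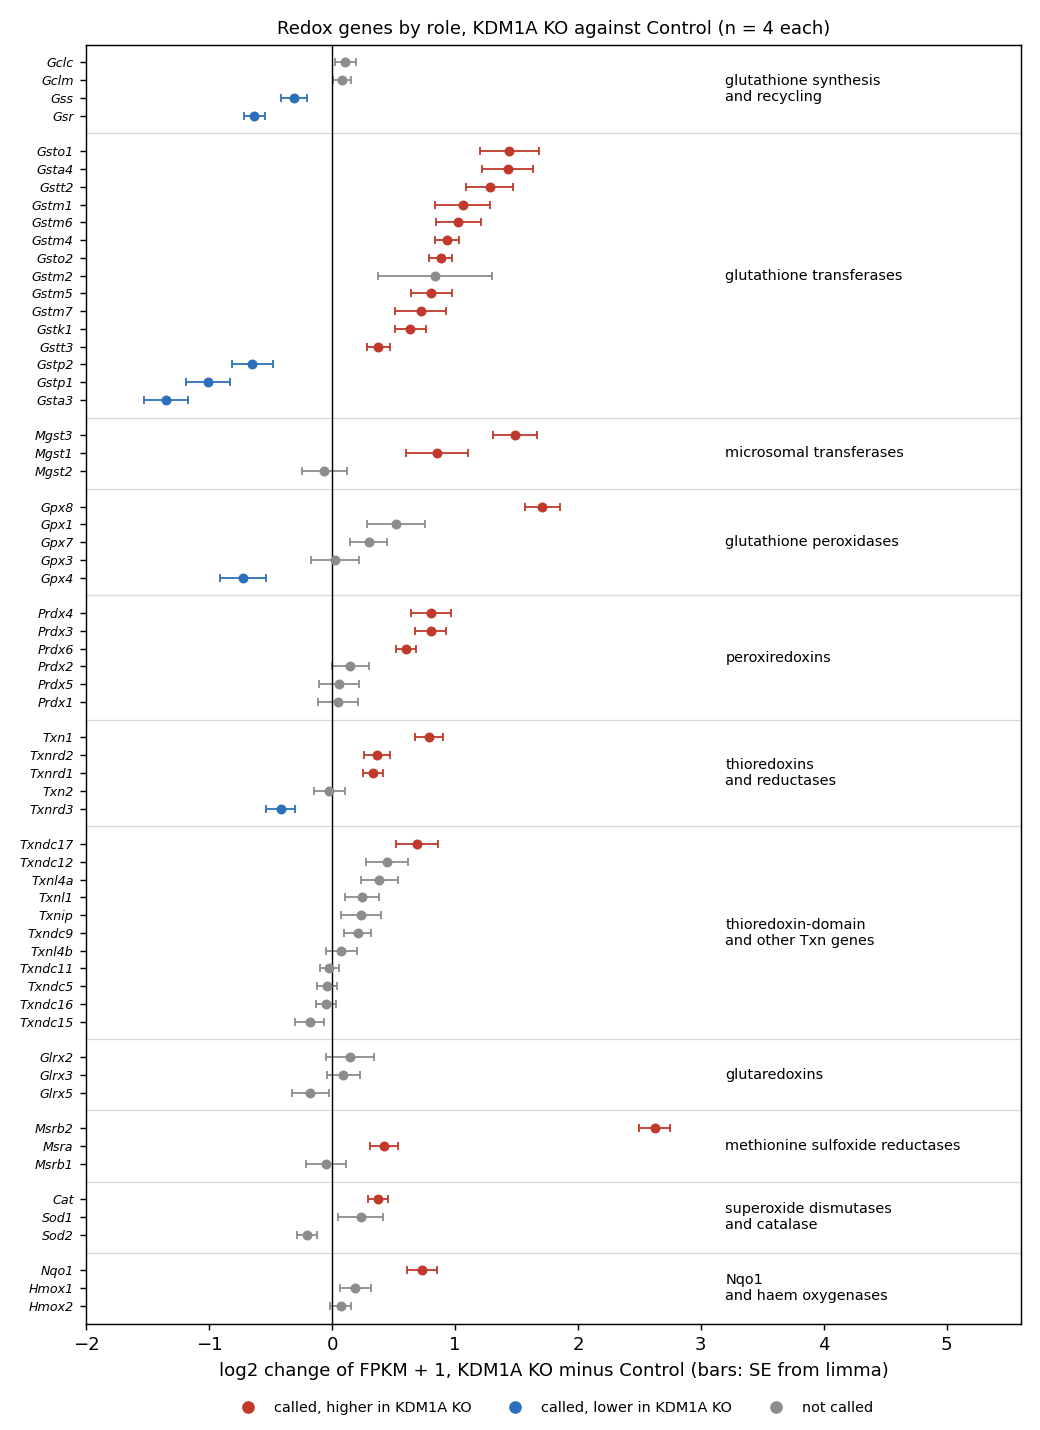
Log2 change of FPKM + 1 (horizontal axis, KDM1A KO minus Control, n = 4 each, bars are the SE from limma) for the 61 redox genes, grouped by role, with called rises in red, called falls in blue and the rest in grey. Msrb2 lies farthest right at 2.62 and Gsta3 farthest left at -1.35; with libraries scaled to equal totals Gsr, Gss, Gstp2 and Txnrd3 lie above 0, as do Msrb1 and other genes drawn near 0.

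The counts were also taken by length of the main transcript, because KDM1A KO replicate 2 read high in transcripts under 1000 bases. In the class under 1000 bases 7 of 17 redox genes rose and 3 fell, where 26.3% and 5.31% of all genes of that class did. From 1000 to under 3000 bases 17 of 37 rose and 4 fell, where 31.0% and 9.18% of all genes did. Of 3000 bases or more 1 of 6 rose and none fell, where 18.8% of all genes rose and another 18.8% fell. KDM1A KO replicate 2 was the highest KO library in 45 of 61 redox genes (73.8%), against 47.7% of all genes. The part of transcript length in any change was not tested.

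**Figure D2:**
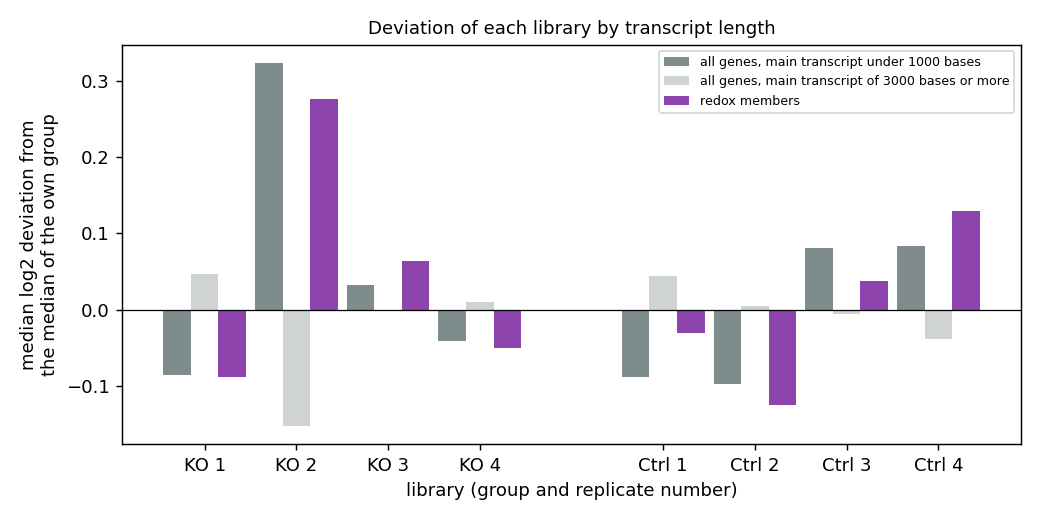
Median log2 deviation of each library from the median of its own group (vertical axis), for all genes with a main transcript under 1000 bases, all genes of 3000 bases or more, and the redox genes. KDM1A KO replicate 2 reaches 0.32 for short transcripts and 0.28 for the redox genes, while Control replicates 2 and 4 mark the ends of the Control range for the redox genes at -0.12 and 0.13.

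The 4 genes of glutathione synthesis and recycling were the role with falls and no rise. Gsr, glutathione reductase (chr8:33652523-33698163, plus strand on GRCm38), had 93.5, 100.1, 93.9 and 88.1 FPKM in KDM1A KO libraries and 162, 145, 144 and 134 FPKM in Control libraries. Every KO library lay below every Control library. Gsr averaged 93.9 ± 4.90 FPKM in KDM1A KO and 146 ± 11.6 FPKM in Control (SD, n = 4 each) and fell 1.56-fold (log2 change -0.63, SE 0.08, adjusted p = 0.000412), although under equal totals its log2 change was 0.09, which is -0.65 relative to the median of all genes. Gss, glutathione synthetase, which joins glycine to gamma-glutamylcysteine, had 16.3 ± 2.57 FPKM in KDM1A KO and 20.3 ± 0.869 FPKM in Control and fell 1.24-fold at the margin of the threshold (log2 change -0.31, SE 0.11, adjusted p = 0.0493). Its groups overlapped through KDM1A KO replicate 2, and the call was lost on leaving out any library other than that replicate (adjusted p 0.0706 to 0.125) and turned to a log2 change of 0.38 under equal totals. The catalytic and modifier subunits of glutamate-cysteine ligase, the rate-limiting enzyme of synthesis, were not called: Gclc had 53.7 ± 5.07 FPKM in KDM1A KO and 49.7 ± 1.75 FPKM in Control (adjusted p = 0.346), and Gclm 93.5 ± 5.92 and 88.2 ± 1.62 FPKM (adjusted p = 0.405). Without KDM1A KO replicate 2, its lowest KO library, Gclc was called higher (log2 change 0.17, adjusted p = 0.0403).

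Glutathione transferases, which couple glutathione to reactive compounds, were the role with most calls. Of 15 soluble and kappa-class genes 11 rose and 3 fell, against 25.3% and 12.1% of all genes. Their summed level was 405, 563, 480.5 and 417 FPKM in KDM1A KO libraries 1 to 4, against 300.1, 243, 298 and 316 FPKM in Control libraries 1 to 4. Every KO sum lay above every Control sum. The classes moved apart, with rises in mu, omega, theta and kappa, falls in pi and 1 gene each way in alpha.

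In the alpha class, Gsta4, known for clearing hydroxynonenal, a product of lipid peroxidation (chr9:78182774-78209349, plus strand), had 88.0, 139, 114 and 101 FPKM in KDM1A KO libraries and 32.3, 30.6, 44.3 and 57.4 FPKM in Control libraries. The groups did not overlap, and Gsta4 rose 2.68-fold to 110.5 ± 21.5 FPKM in KDM1A KO, against 41.1 ± 12.4 FPKM in Control (log2 change 1.43, SE 0.21, adjusted p = 0.000727). Gsta3, which in mice is known for detoxifying aflatoxin epoxide (ENSMUSG00000025934, chr1:21240589-21265661, plus strand), went the other way, with 4.11, 8.14, 5.35 and 5.27 FPKM in KDM1A KO libraries and 15.3, 14.2, 14.5 and 19.6 FPKM in Control libraries. All KO values lay below all Control values, KDM1A KO replicate 2 being the KO library nearest to the controls. Gsta3 fell 2.78-fold, to 5.72 ± 1.71 FPKM in KDM1A KO, against 15.9 ± 2.52 FPKM in Control (log2 change -1.35, SE 0.18, adjusted p = 0.000406), and it was the redox gene that stayed called lower under equal totals (log2 change -0.71, adjusted p = 0.0118).

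Of the 6 mu-class genes, which lie side by side on chromosome 3 between Gstm5 (chr3:107895821-107898686, plus strand) and Gstm4 (chr3:108040408-108044894, minus strand), 5 rose. Gstm5, the most abundant transferase, had 119, 199, 136 and 119 FPKM in KDM1A KO libraries and 71.9, 71.6, 90.8 and 86.2 FPKM in Control libraries. No KO library reached down to the controls, KDM1A KO replicate 2 was the highest, and the gene rose 1.79-fold (log2 change 0.81, SE 0.17, adjusted p = 0.00507). Gstm4 had 6.68, 6.32, 7.71 and 6.31 FPKM in KDM1A KO libraries and 2.69, 3.02, 3.36 and 3.10 FPKM in Control libraries, a rise of 2.22-fold with little spread in either group (log2 change 0.94, SE 0.10, adjusted p = 0.000113).

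Gstm1 had 32.0, 26.8, 41.2 and 34.8 FPKM in KDM1A KO libraries and 25.1, 11.5, 12.3 and 15.8 FPKM in Control libraries. Here Control replicate 1 came close to the lowest KO library, replicate 2, without reaching it, and Gstm1 rose 2.08-fold (log2 change 1.06, SE 0.23, adjusted p = 0.00571). Gstm6 had 15.2, 16.1, 19.7 and 15.6 FPKM in KDM1A KO libraries and 11.3, 5.88, 6.00 and 8.39 FPKM in Control libraries. Again Control replicate 1 was the highest control and stayed below the KO libraries, and the rise was 2.11-fold (log2 change 1.03, SE 0.18, adjusted p = 0.0023). Gstm7 averaged 5.28 ± 0.429 FPKM in KDM1A KO and 2.98 ± 1.45 FPKM in Control and rose 1.77-fold (log2 change 0.72, SE 0.21, adjusted p = 0.0238), with overlap through Control replicate 1 (4.96 to 5.91 FPKM over the KO libraries, 2.01 to 5.07 FPKM over the controls). The call on Gstm7 was lost without KDM1A KO replicate 3 or without Control replicate 2, 3 or 4 (adjusted p 0.0503 to 0.0675) and after length centring (0.118) or median-ratio scaling (0.0523). Gstm2 had 22.6, 7.65, 28.6 and 22.3 FPKM in KDM1A KO libraries and 22.8, 5.41, 7.10 and 10.3 FPKM in Control libraries and missed the threshold (adjusted p = 0.186). Without KDM1A KO replicate 2, its lowest KO library, it passed (log2 change 1.22, adjusted p = 0.0302). Parts of the main transcripts of Gstm1 (23.2%), Gstm6 (11.8%) and Gstm2 (9.36%) also occur, in stretches of 50 bases, in transcripts of other genes of the cluster or its pseudogenes, so the values of those 3 are uncertain one by one.

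**Figure D3:**
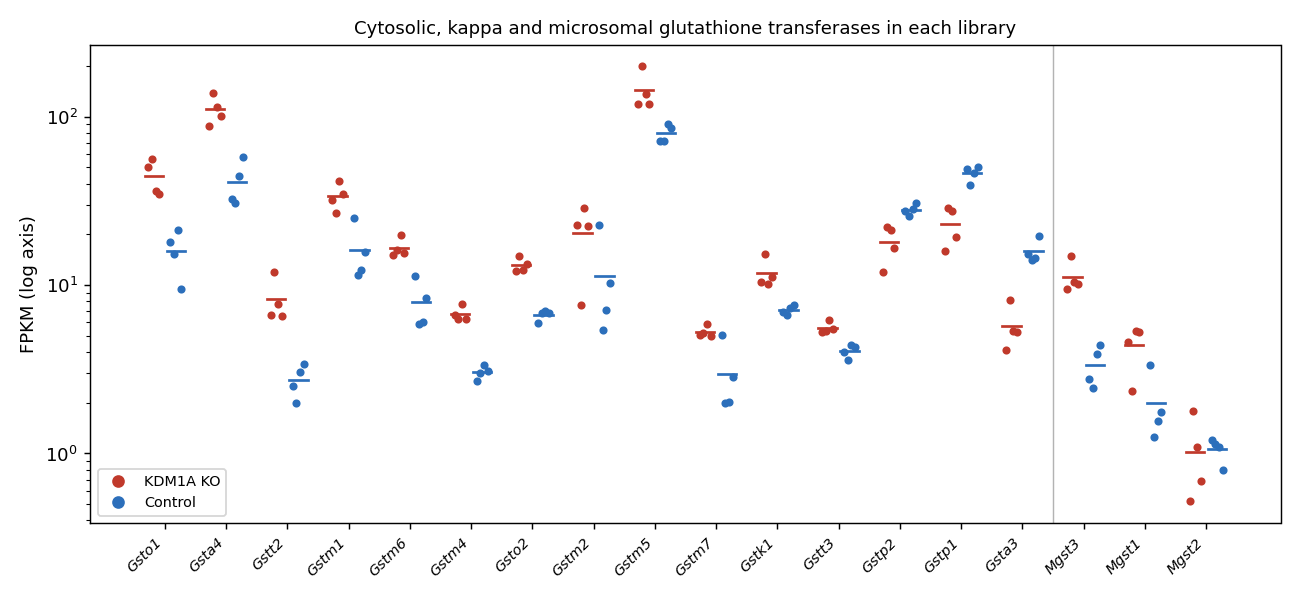
FPKM (log axis) of the glutathione transferases in each library, with a dot per library, a bar at the group mean, KDM1A KO in red left of Control in blue, and the microsomal genes right of the line. Gsta4, Gsto1 and Gstt2 are higher in every KDM1A KO library than in any Control library, Gstp1, Gstp2 and Gsta3 lower, and Gstm2 overlaps; under equal totals the log2 change of Gstp2 is 0.04.

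The omega genes, known for removing glutathione from proteins and for reducing dehydroascorbate, lie next to each other on chromosome 19 and both rose. Gsto1 (chr19:47854970-47864790, plus strand) had 50.4, 56.5, 36.4 and 34.6 FPKM in KDM1A KO libraries and 18.1, 15.3, 21.1 and 9.54 FPKM in Control libraries. KDM1A KO replicates 1 and 2 were the highest and Control replicate 4 the lowest, the groups did not overlap, and Gsto1 rose 2.78-fold (log2 change 1.44, SE 0.24, adjusted p = 0.00144). Gsto2 had 12.2, 14.8, 12.3 and 13.3 FPKM in KDM1A KO libraries and 5.96, 6.87, 7.06 and 6.79 FPKM in Control libraries, a rise of 1.98-fold with no overlap (log2 change 0.88, SE 0.09, adjusted p = 0.000118). Both overlap Cfap43, which is transcribed from the opposite strand; the kit marks strand, and the sources used here do not say whether quantification used it.

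The theta and kappa classes rose too. Gstt2 had 6.66, 12.0, 7.74 and 6.52 FPKM in KDM1A KO libraries and 2.50, 1.99, 3.03 and 3.42 FPKM in Control libraries, where KDM1A KO replicate 2 was far above the other KO libraries and all 4 exceeded the controls (3.01-fold, log2 change 1.28, SE 0.19, adjusted p = 0.000859). Gstt3, in the same cluster on chromosome 10, had 5.26, 5.33, 6.23 and 5.48 FPKM in KDM1A KO libraries and 3.99, 3.59, 4.43 and 4.26 FPKM in Control libraries, a smaller rise of 1.37-fold without overlap (log2 change 0.38, SE 0.09, adjusted p = 0.0125). It shares 26.0% of its main transcript with the overlapping gene model Gm20441 and was not called after length centring (adjusted p = 0.125) or median-ratio scaling (adjusted p = 0.0517). Gstk1, the transferase of mitochondria and peroxisomes, had 10.4, 15.4, 10.2 and 11.2 FPKM in KDM1A KO libraries and 6.91, 6.68, 7.36 and 7.60 FPKM in Control libraries. It rose 1.65-fold with no overlap (log2 change 0.64, SE 0.13, adjusted p = 0.00413).

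The pi-class neighbours Gstp1 and Gstp2 on chromosome 19, known for detoxification and for binding the kinase JNK, both fell. Gstp1 (chr19:4035407-4037985, minus strand) had 15.9, 28.9, 27.5 and 19.4 FPKM in KDM1A KO libraries and 48.8, 39.3, 46.2 and 50.1 FPKM in Control libraries. All KO values were below all Control values, and Gstp1 fell 2.01-fold (log2 change -1.01, SE 0.18, adjusted p = 0.00219), a change of -0.31 under equal totals (adjusted p = 0.255), which is -1.05 relative to all genes. Gstp2 (chr19:4040285-4046023, minus strand) had 12.0, 22.0, 21.2 and 16.7 FPKM in KDM1A KO libraries and 27.6, 25.6, 28.3 and 30.9 FPKM in Control libraries. It fell 1.56-fold without overlap (log2 change -0.65, SE 0.17, adjusted p = 0.0148), although under equal totals its log2 change was 0.04, or -0.69 relative to all genes. Their main transcripts are 90.4% identical, and 62.3% of the Gstp1 transcript and 72.6% of the Gstp2 transcript occur in other genes in stretches of 50 bases, so the split of reads between the pair is uncertain.

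Upstream sequences are shown for a transferase that fell and one that rose, each with a match to the core of the antioxidant response element, and for the pi-class pair, whose start regions resemble each other as their transcripts do. Capitals mark the core, searched as TGACNNNGC on both strands, and the sequences run 5′ to 3′ from 250 bases before the RefSeq start site on GRCm38.p6 to the start site or, where a GENCODE M21 exon of the gene begins earlier, to the base before it. They cover chr1:21240335-21240584, plus strand (Gsta3), chr3:107895604-107895820, plus strand (Gstm5), chr19:4037986-4038162, minus strand (Gstp1) and chr19:4042264-4042471, minus strand (Gstp2). The Gstp2 window lies before its RefSeq start site but inside the GENCODE span of the gene, chr19:4040285-4046023.
Gsta3: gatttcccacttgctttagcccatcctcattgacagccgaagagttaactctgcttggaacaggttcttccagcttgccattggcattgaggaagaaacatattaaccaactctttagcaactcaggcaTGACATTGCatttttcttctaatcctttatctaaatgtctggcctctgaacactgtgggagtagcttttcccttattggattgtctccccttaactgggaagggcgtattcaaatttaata
Gstm5: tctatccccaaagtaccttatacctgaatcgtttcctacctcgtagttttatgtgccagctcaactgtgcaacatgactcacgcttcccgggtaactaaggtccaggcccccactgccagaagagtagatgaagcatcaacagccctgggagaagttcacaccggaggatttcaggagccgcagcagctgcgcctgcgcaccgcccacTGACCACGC
Gstp1: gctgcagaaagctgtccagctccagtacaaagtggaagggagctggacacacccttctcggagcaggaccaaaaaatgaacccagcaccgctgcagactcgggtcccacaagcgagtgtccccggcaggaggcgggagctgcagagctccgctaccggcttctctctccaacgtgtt
Gstp2: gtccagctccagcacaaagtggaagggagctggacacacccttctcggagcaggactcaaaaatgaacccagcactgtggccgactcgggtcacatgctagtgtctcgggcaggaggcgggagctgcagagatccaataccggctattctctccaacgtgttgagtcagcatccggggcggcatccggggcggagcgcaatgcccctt

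In Gsta3 the match begins 121 bases before the start site and in Gstm5 42 bases before it, while these letters are absent from the windows of Gstp1 and Gstp2. The printed Gstp2 window does hold tgagtcagc, which has a G where the core searched has a C. Other spellings of the element were not searched, so a window without a match may still hold one. The 250 bases before the RefSeq start sites of Gstp1 and Gstp2 are 78.1% identical. Over the windows of 250 bases before to 50 after a start, 11 of the 52 redox genes with an entry in the RefSeq table held a match (21.2%), where 3781 of 27025 genes did (14.0%). The 11 were Gclm, Gsta3, Gstm5, Gstm7, Mgst1, Msrb2, Prdx1, Sod1, Txndc5, Txndc11 and Txnrd1. Of these Gstm5, Gstm7, Mgst1, Msrb2 and Txnrd1 rose, Gsta3 fell, also under equal totals, and the others were not called. Over all 61 redox genes 41.0% rose and 11.5% fell. The calls on Gstm7, Mgst1 and Txnrd1 were lost after median-ratio scaling. A match is a description of the letters and says nothing about binding.

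The microsomal transferases are membrane enzymes that also act as peroxidases or make leukotriene C4. Mgst3 (chr1:167371966-167393841, minus strand) had 9.54, 14.9, 10.4 and 10.1 FPKM in KDM1A KO libraries and 2.75, 2.46, 3.89 and 4.39 FPKM in Control libraries. All KO libraries stood clear of the controls, replicate 2 farthest, and Mgst3 rose 3.33-fold (log2 change 1.49, SE 0.18, adjusted p = 0.000257). Mgst1 averaged 4.38 ± 1.41 FPKM in KDM1A KO and 1.99 ± 0.944 FPKM in Control and rose 2.21-fold (log2 change 0.85, SE 0.25, adjusted p = 0.0265), with overlap, because KDM1A KO replicate 2 (2.34 to 5.34 FPKM over the KO libraries) lay below Control replicate 1 (1.24 to 3.36 FPKM over the controls). Without that KO replicate its adjusted p was 0.00337, but the call was lost on leaving out any other library except Control replicate 1 (adjusted p 0.0523 to 0.0758) and after length centring (0.18) or median-ratio scaling (0.0505). Mgst2, near the limit of 1 FPKM, was not called (adjusted p = 0.813).

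Some of these transferases shared features across libraries with somatic cell marker genes that were picked after their values were seen. Gstm1, Gstm2, Gstm6, Gstm7 and Mgst1 were all higher in Control replicate 1 than in the other controls. Gstm1, Gstm2 and Mgst1, but not Gstm6 or Gstm7, were also lowest among the KO libraries in replicate 2. The Sertoli cell marker Clu showed both features, with 20.3, 11.7, 27.6 and 26.0 FPKM in KDM1A KO libraries and 25.1, 7.54, 7.05 and 9.62 FPKM in Control libraries. Amh had 4.38, 2.18, 7.32 and 4.63 FPKM in KDM1A KO libraries and 4.21, 0.894, 1.79 and 2.52 FPKM in Control libraries. Of 14 Sertoli markers 11 were tested, of which 3 rose (Rhox8, Tsx and Ctsl) and none fell. Over all genes tested 25.3% rose and 12.1% fell. In 1 of the 11 all KO values lay above all Control values. The full list summed to 158, 175, 193 and 181 FPKM in KDM1A KO libraries and 126, 77.3, 88.5 and 110 FPKM in Control libraries. So the full list was highest of the controls in replicate 1, but its lowest KO library was replicate 1, not replicate 2. Without the lysosomal protease gene Ctsl, which many cells express, the sums were 59.9, 32.3, 79.7 and 70.8 FPKM in KDM1A KO and 66.1, 23.0, 22.9 and 30.8 FPKM in Control libraries, which overlap. Sox9 (0.400 to 0.975 FPKM in KDM1A KO, 0.347 to 0.846 in Control) and Fshr (0.172 to 0.439 and 0.0898 to 0.375 FPKM) were near 0 throughout.

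The part of Sertoli RNA in the rise of the mu-class genes was not tested, and in sorted bulk samples a change in the number of cells of a type and in RNA per cell cannot be told apart. Among the other somatic lists, the peritubular and mesenchymal sum was also highest of the controls in replicate 1. It was lowest of the KO libraries in KDM1A KO replicate 2. The endothelial sum showed neither feature. The 7 tested peritubular and mesenchymal markers summed with the rest of their list to 30.8, 25.3, 30.7 and 30.8 FPKM in KDM1A KO libraries and 54.1, 39.0, 39.7 and 37.1 FPKM in Control libraries, with 1 fall (Col1a1) and no rise. Of 5 endothelial markers 2 rose (Pecam1 and Tek) and 1 fell (Plvap), and the sums were 14.4, 14.7, 14.6 and 13.8 FPKM in KDM1A KO and 11.4, 9.53, 14.6 and 15.4 FPKM in Control libraries. The macrophage genes in the table, Cd68, Mrc1 and Cx3cr1, summed to 1.83 to 3.33 FPKM in KDM1A KO and 2.06 to 3.27 FPKM in Control libraries, the Leydig cell genes Star and Nr5a1 to 1.91 to 3.27 and 1.78 to 2.65 FPKM, and the erythroid genes Alas2 and Hbb-b1 to 1.60 to 2.50 and 0.282 to 0.760 FPKM. Among 14 germ cell genes 1 rose (Tex101) and 4 fell (Zbtb16, Sall4, Nanos2 and Nanos3). Over all genes tested, the background for each of these lists, 25.3% rose and 12.1% fell.

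**Figure D4:**
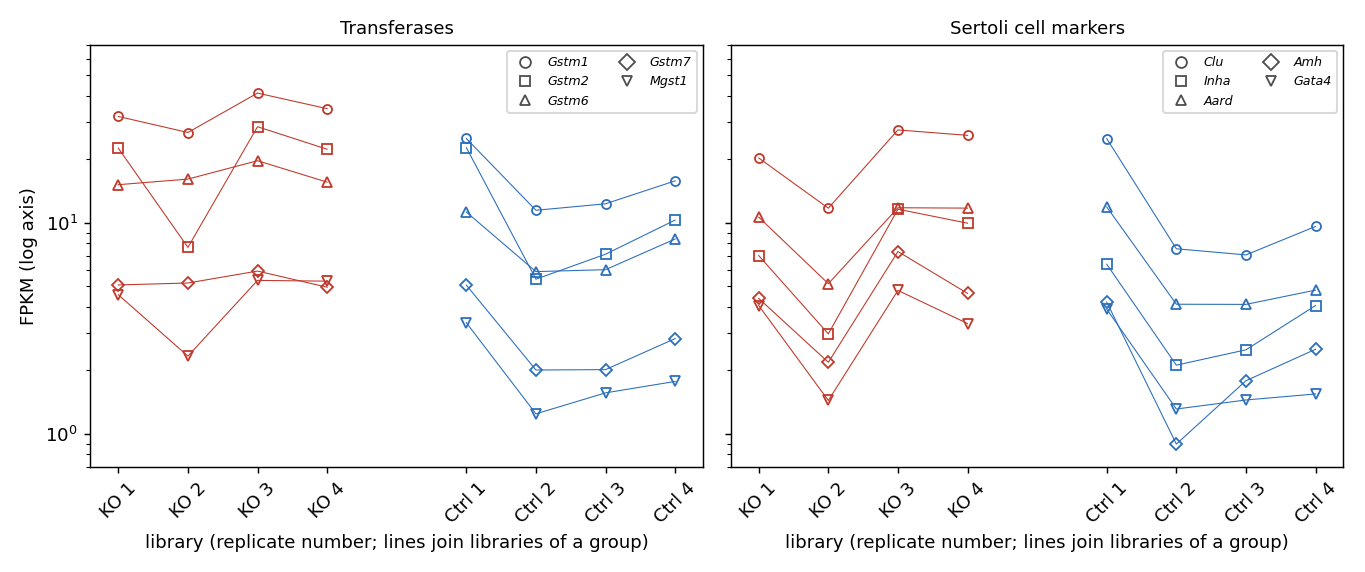
FPKM (log axis) in each library for 5 transferases (left) and 5 Sertoli cell markers (right), KDM1A KO libraries in red left of Control libraries in blue; lines join the libraries of a group and imply no order. In both panels Control replicate 1 is the highest control, and Gstm2 and Mgst1, like Clu and the other markers drawn, are lowest among the KO libraries in KDM1A KO replicate 2.

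Glutathione peroxidases, which reduce peroxides with glutathione, split by gene. Gpx8, an enzyme of the endoplasmic reticulum (ENSMUSG00000021760, chr13:113042753-113046410, minus strand), had 5.23, 6.09, 5.09 and 6.21 FPKM in KDM1A KO libraries and 1.34, 0.546, 1.20 and 1.14 FPKM in Control libraries. The groups were far apart, and Gpx8 rose 5.36-fold to 5.66 ± 0.578 FPKM in KDM1A KO, against 1.06 ± 0.350 FPKM in Control (log2 change 1.71, SE 0.14, adjusted p = 3.27e-05). It lies on the opposite strand to Cdc20b, which overlaps it. Gpx4, which reduces lipid peroxides in membranes, had 48.9, 86.7, 61.7 and 52.2 FPKM in KDM1A KO libraries and 79.4, 99.1, 114 and 118 FPKM in Control libraries. KDM1A KO replicate 2 lay above Control replicate 1, and the other 3 KO libraries below all controls. Gpx4 fell 1.64-fold (log2 change -0.73, SE 0.19, adjusted p = 0.0144; without KDM1A KO replicate 2, log2 change -0.90 and adjusted p = 0.00117), while under equal totals its log2 change was -0.01, or -0.75 relative to all genes. Of its main transcript, 68.9% also occurs in the pseudogene Gpx4-ps2, so its level is uncertain.

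The other peroxidases were not called. Gpx1, of the cytosol and mitochondria, had 77.8 ± 24.7 FPKM in KDM1A KO and 53.5 ± 14.4 FPKM in Control (adjusted p = 0.11). Gpx3, a secreted form, had 4.32 ± 1.18 and 4.22 ± 1.16 FPKM (adjusted p = 0.933), and Gpx7, the relative of Gpx8 in the endoplasmic reticulum, 1.71 ± 0.332 and 1.22 ± 0.410 FPKM (adjusted p = 0.145).

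The peroxidases and the methionine sulfoxide reductases of the B type each come with selenocysteine or with cysteine at the catalytic position. Msrb2 and Gpx8, picked here because their rises were the largest, have cysteine. So does Gpx7, which was not called. Selenocysteine is read from an in-frame TGA, otherwise a stop codon. The catalytic codon is in capitals with neighbouring codons of the main GENCODE M21 transcript, in frame and 5′ to 3′; for the cysteine genes it is the codon aligned with that of Gpx1 or Msrb1.
Gpx1: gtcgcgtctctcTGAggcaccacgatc
Gpx3: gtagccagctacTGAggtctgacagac
Gpx4: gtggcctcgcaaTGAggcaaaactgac
Gpx7: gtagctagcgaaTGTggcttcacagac
Gpx8: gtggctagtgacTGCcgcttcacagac
Msrb1: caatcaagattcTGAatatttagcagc
Msrb2: ggccaaaggtttTGCatcaacagtgtg
Msrb3: ggcaaaagatacTGCatcaactcagca

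The TGA is codon 47 in Gpx1, 73 in Gpx3, 73 in Gpx4 and 95 in Msrb1, and the aligned cysteine codon is TGT at 56 in Gpx7, TGC at 79 in Gpx8, TGC at 162 in Msrb2 and TGC at 151 in Msrb3. GENCODE marks 7 of the redox genes as selenoproteins: Gpx1, Gpx3, Gpx4, Msrb1, Txnrd1, Txnrd2 and Txnrd3. Of these 2 rose (Txnrd1 and Txnrd2), 2 fell (Gpx4 and Txnrd3, the change of Txnrd3 being above 0 and that of Gpx4 uncalled under equal totals) and 3 were not called, with a median log2 change of 0.02. Of the other 54, 23 rose and 5 fell, against 25.3% and 12.1% of all genes, with a median log2 change of 0.27. The difference between these sets was not tested.

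Msrb2, the mitochondrial methionine sulfoxide reductase (ENSMUSG00000023094, chr2:19371440-19394976, plus strand), had 8.68, 11.9, 8.27 and 7.88 FPKM in KDM1A KO libraries and 0.692, 0.542, 0.739 and 0.566 FPKM in Control libraries. Every Control value was below 1 FPKM and every KO value above 5, so the gene passed the limit through the KO libraries. It rose 14.5-fold (log2 change 2.62, SE 0.13, adjusted p = 4.69e-06), and without KDM1A KO replicate 2 the adjusted p was 2.38e-06. No stretch of 50 bases in its main transcript occurs in another gene, and no gene overlaps it. Msra, which acts on the other stereoisomer of oxidised methionine, averaged 3.25 ± 0.559 FPKM in KDM1A KO and 2.16 ± 0.215 FPKM in Control and rose 1.51-fold (log2 change 0.42, SE 0.12, adjusted p = 0.0183), a call lost without Control replicate 2 (adjusted p = 0.0502) and after length centring (0.0594). Msrb1, the selenoprotein and the most abundant of the 3, had 22.5 ± 5.56 FPKM in KDM1A KO and 23.0 ± 3.42 FPKM in Control and was not called (adjusted p = 0.838). It was called lower after length centring (log2 change -0.32, adjusted p = 0.0116) and higher under equal totals (0.64, adjusted p = 0.0198).

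**Figure D5:**
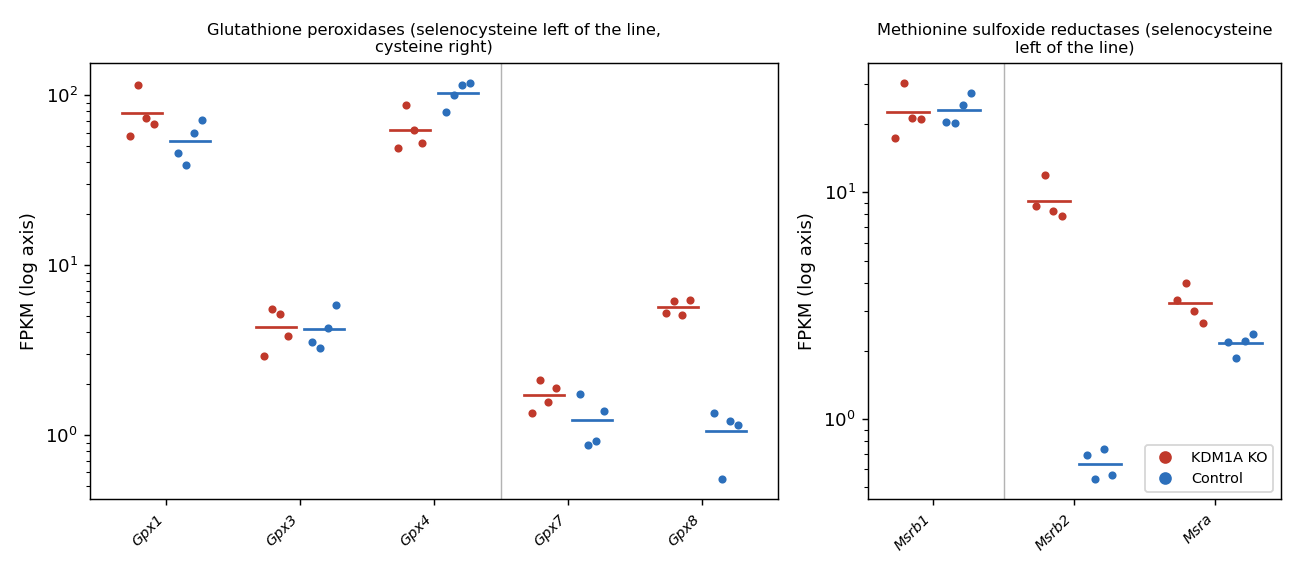
FPKM (log axis) of the glutathione peroxidases (left panel) and methionine sulfoxide reductases (right panel) in each library, with a dot per library and a bar at the group mean, KDM1A KO in red left of Control in blue. Gpx8 and Msrb2 separate fully, at 5.09 to 6.21 and 7.88 to 11.9 FPKM in KDM1A KO against 0.546 to 1.34 and 0.542 to 0.739 FPKM in Control, while Gpx1 and Msrb1 overlap and Gpx4, lower in the KDM1A KO mean, overlaps through KDM1A KO replicate 2; under equal totals the log2 change of Gpx4 is -0.01.

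Peroxiredoxins reduce hydrogen peroxide with a cysteine and are mostly restored by thioredoxin. Of the 6 genes, 3 rose and none fell, against 25.3% and 12.1% of all genes. The family summed to 1212 to 1667 FPKM in KDM1A KO and 989 to 1423 FPKM in Control libraries. Prdx3, the mitochondrial form, had 23.4, 32.3, 29.2 and 22.3 FPKM in KDM1A KO libraries and 14.1, 14.2, 14.2 and 16.8 FPKM in Control libraries. It rose 1.81-fold without overlap (log2 change 0.80, SE 0.13, adjusted p = 0.00108). Prdx4, the form of the endoplasmic reticulum and X-linked, had 147, 259, 175 and 174 FPKM in KDM1A KO libraries and 94.1, 97.8, 109 and 123 FPKM in Control libraries. Its KO libraries all exceeded the controls, with replicate 2 well above the others, and it rose 1.78-fold (log2 change 0.80, SE 0.17, adjusted p = 0.00489). Prdx6, which has a single active cysteine and also phospholipase activity, had 68.8, 81.0, 74.7 and 71.1 FPKM in KDM1A KO libraries and 51.0, 45.5, 51.5 and 45.6 FPKM in Control libraries, a rise of 1.53-fold without overlap (log2 change 0.60, SE 0.08, adjusted p = 0.000507).

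Prdx1, of the cytosol, was the most abundant redox gene, with 23.0% of the summed FPKM of the 61 genes in KDM1A KO and 26.0% in Control. It had 855, 1118, 957 and 876 FPKM in KDM1A KO libraries and 931, 714, 966 and 1099 FPKM in Control libraries. The groups overlapped across most of their range and the gene was not called (log2 change 0.05, adjusted p = 0.849); 40.0% of its main transcript also occurs in other genes. Prdx2 and Prdx5 were not called either, with 49.3 ± 9.57 and 84.3 ± 20.1 FPKM in KDM1A KO, against 44.3 ± 6.89 and 80.1 ± 10.6 FPKM in Control (adjusted p = 0.464 and 0.811).

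In the thioredoxin system, 3 of 5 genes rose and 1 fell, against 25.3% and 12.1% of all genes. Txn1, the cytosolic thioredoxin, had 55.4, 67.8, 61.9 and 57.1 FPKM in KDM1A KO libraries and 35.3, 28.1, 36.1 and 39.9 FPKM in Control libraries. It rose 1.74-fold with no overlap (log2 change 0.79, SE 0.11, adjusted p = 0.000722). Its reductase Txnrd1 had 45.4, 48.3, 50.4 and 44.3 FPKM in KDM1A KO libraries and 38.6, 36.2, 34.0 and 40.2 FPKM in Control libraries. The groups were narrow and separate, and the rise was 1.26-fold (log2 change 0.33, SE 0.08, adjusted p = 0.00989), though it was not called after median-ratio scaling (adjusted p = 0.0891).

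The mitochondrial reductase Txnrd2 had 11.9, 16.3, 13.5 and 13.1 FPKM in KDM1A KO libraries and 11.1, 10.6, 9.44 and 10.4 FPKM in Control libraries. It rose 1.32-fold with no overlap (log2 change 0.37, SE 0.10, adjusted p = 0.0212). The call was lost without KDM1A KO replicate 3 (adjusted p = 0.0537), without Control replicate 3 (0.0636) and after length centring (0.113) or median-ratio scaling (0.0989). Its partner Txn2 was not called, with 44.8 ± 6.56 FPKM in KDM1A KO and 45.5 ± 5.97 FPKM in Control (adjusted p = 0.901), though called lower after length centring (log2 change -0.25, adjusted p = 0.0382). Txnrd3, known as the thioredoxin-glutathione reductase of the testis, had 24.3, 27.7, 26.7 and 22.0 FPKM in KDM1A KO libraries and 36.1, 39.9, 32.8 and 27.9 FPKM in Control libraries. The highest KO library, replicate 2, lay just under the lowest control, replicate 4. Txnrd3 fell 1.36-fold (log2 change -0.42, SE 0.12, adjusted p = 0.0213), but under equal totals its log2 change was 0.28, or -0.46 relative to all genes, and the call was lost without KDM1A KO replicate 4 (adjusted p = 0.0602), Control replicate 1 (0.0596) or Control replicate 2 (0.056).

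All 3 reductases carry selenocysteine as the last residue but one. The ends of their coding sequences, with the TGA in capitals followed by a glycine codon and the stop, show how alike the genes that rose and the gene that fell are at this site.
Txnrd1: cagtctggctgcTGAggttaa
Txnrd2: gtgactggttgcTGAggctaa
Txnrd3: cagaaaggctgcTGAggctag

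The TGA is codon 498 of Txnrd1, 526 of Txnrd2 and 614 of Txnrd3.

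Of the 11 genes with thioredoxin domains or names, 1 rose and none fell, against 25.3% and 12.1% of all genes. Txndc17, a small cytosolic disulfide reductase, had 56.6, 93.2, 65.7 and 57.1 FPKM in KDM1A KO libraries and 40.0, 33.7, 41.8 and 49.8 FPKM in Control libraries. KDM1A KO replicate 2 was the highest by far, the lowest KO library was still above the highest control, and the rise was 1.65-fold (log2 change 0.69, SE 0.17, adjusted p = 0.012). Txnip, which binds and inhibits thioredoxin and limits glucose uptake, was the most abundant of them, with 141, 215, 155 and 126 FPKM in KDM1A KO libraries and 124, 157, 130.3 and 121 FPKM in Control libraries; the groups overlapped and it was not called (adjusted p = 0.286). Txndc5 (adjusted p = 0.74) and Txndc12 (0.0643), disulfide-handling enzymes of the endoplasmic reticulum, were not called. Nor were Txndc11 (0.851), Txndc15 (0.261), Txndc16 (0.643), Txndc9 (0.167), Txnl1 (0.201), Txnl4a (0.0716) and Txnl4b (0.672); after length centring Txndc15 was called lower (log2 change -0.41, adjusted p = 0.0129).

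None of the 3 glutaredoxins, which use glutathione to reduce disulfides or to hand on iron-sulfur clusters, was called. Glrx3, the most abundant, had 101 ± 21.0 FPKM in KDM1A KO and 93.2 ± 8.21 FPKM in Control (adjusted p = 0.631). Glrx5, of the mitochondrial iron-sulfur pathway, had 43.6 ± 9.32 and 49.1 ± 6.62 FPKM (adjusted p = 0.38), and Glrx2, also mitochondrial, 14.2 ± 3.02 and 13.0 ± 3.86 FPKM (adjusted p = 0.595).

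Among the enzymes that remove superoxide and hydrogen peroxide without thiols, catalase rose and the dismutases were not called. Cat, the peroxisomal catalase, had 34.3, 30.4, 37.3 and 34.6 FPKM in KDM1A KO libraries and 26.8, 25.2, 25.4 and 26.9 FPKM in Control libraries. The groups did not overlap, and KDM1A KO replicate 2 was the lowest KO library. The rise was 1.31-fold (log2 change 0.37, SE 0.08, adjusted p = 0.0054), with an adjusted p of 0.0636 after median-ratio scaling. Sod1, the cytosolic dismutase, held 18.3% of the summed FPKM of the 61 genes in KDM1A KO and 17.8% in Control, with 626, 1043, 718 and 644 FPKM in KDM1A KO libraries and 563, 564, 685 and 728 FPKM in Control libraries. The groups overlapped (adjusted p = 0.35). Sod2, its mitochondrial counterpart, had 11.7, 12.9, 13.0 and 12.0 FPKM in KDM1A KO libraries and 14.5, 15.4, 14.8 and 13.1 FPKM in Control libraries; all KO values were below the controls, by little, and the gene was not called (log2 change -0.20, adjusted p = 0.0741) except without KDM1A KO replicate 2 (adjusted p = 0.0459).

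Nqo1, a quinone reductase and a standard NRF2 target, had 2.99, 2.99, 4.06 and 2.51 FPKM in KDM1A KO libraries and 1.33, 1.36, 1.56 and 1.65 FPKM in Control libraries. It rose 2.13-fold without overlap (log2 change 0.73, SE 0.12, adjusted p = 0.00163) at a low level. Hmox1, the inducible haem oxygenase and likewise an NRF2 target, was not called, with 60.8 ± 9.64 FPKM in KDM1A KO and 53.1 ± 6.73 FPKM in Control (adjusted p = 0.274). Hmox2, the constitutive form, had 76.7 ± 6.45 and 73.0 ± 5.09 FPKM (adjusted p = 0.564); its log2 change of 0.07 became -0.20 after length centring, where it was called lower (adjusted p = 0.0327).

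The 6 genes with a Control mean of at least 100 FPKM were Prdx1, Sod1, Gsr, Txnip, Prdx4 and Gpx4, in that order of Control level. Of these Prdx4 rose, and Gsr and Gpx4 fell, neither being called lower under equal totals. Summed over all 61 genes, FPKM was 3617, 5093, 4088 and 3724 in KDM1A KO libraries 1 to 4 and 3429, 3153, 3721 and 3989 in Control libraries 1 to 4. Apart from KDM1A KO replicate 2, the highest, the sums of the groups overlapped.

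Of the 7 genes whose symbol matched but whose mean was under 1 FPKM, Glrx had 0.716, 1.44, 1.25 and 1.09 FPKM in KDM1A KO libraries and 0.363, 0.250, 0.423 and 0.578 FPKM in Control libraries. Msrb3 had 1.14, 0.832, 1.18 and 0.984 FPKM in KDM1A KO libraries and 0.604, 0.363, 0.266 and 0.303 FPKM in Control libraries. Gstt1 had 0.861, 1.05, 0.820 and 0.933 FPKM in KDM1A KO libraries and 0.399, 0.160, 0.402 and 0.241 FPKM in Control libraries. In each of these 3 all KO values lay above all Control values, and all 3 were called higher when no filter was applied (limma adjusted p = 0.00415 for Glrx, 0.00174 for Msrb3 and 0.00077 for Gstt1). In that fit 4642 genes rose and 1997 fell, out of 17589 in the table. Over the 13483 genes that reached the limit, 26.1% had all KO values above all Control values. Whether these 7 genes differ from others of low level was not tested. Gpx2, its pseudogene Gpx2-ps1, Gsta2 and Gstt4 stayed at or below 0.971 FPKM in every library and were not called.

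Genes that supply or regulate the system were taken from 6 lists that hold none of the 61 genes. Of 98 tested, 27 rose and 12 fell, with a median log2 change of 0.11, beside 0.09 for all genes and shares of 25.3% and 12.1%. Among 9 NRF2 regulators 1 rose and 1 fell. Nfe2l2 itself had 32.2, 35.5, 37.2 and 36.4 FPKM in KDM1A KO libraries and 33.1, 32.0, 33.1 and 35.0 FPKM in Control libraries, overlapping (adjusted p = 0.42), and Keap1 6.23 ± 0.254 FPKM in KDM1A KO and 5.45 ± 0.619 FPKM in Control (adjusted p = 0.194). Sqstm1, an autophagy receptor that binds KEAP1, rose (log2 change 0.30, SE 0.09, adjusted p = 0.0272). Its call was lost without KDM1A KO replicate 3 or Control replicate 1, 2 or 3, with the replicate number as a block, with the highest entry alone or after median-ratio scaling, at adjusted p up to 0.148. Mafg, a small partner of NRF2, fell (log2 change -0.30, SE 0.07, adjusted p = 0.00761; 0.40 under equal totals).

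Of 14 genes of cysteine supply and the gamma-glutamyl cycle 5 rose and 3 fell, against 25.3% and 12.1% of all genes. Chac2, which degrades glutathione, had 5.31, 5.69, 5.32 and 5.18 FPKM in KDM1A KO libraries and 2.14, 2.20, 1.76 and 1.91 FPKM in Control libraries. It rose 2.69-fold with no overlap (log2 change 1.09, SE 0.09, adjusted p = 2.87e-05). Ggt7, of the gamma-glutamyltransferase family, rose (log2 change 0.90, SE 0.14, adjusted p = 0.000955), as did Ahcy, which splits S-adenosylhomocysteine (log2 change 0.37, SE 0.07, adjusted p = 0.00245), and the glutamine transporter Slc1a5 (log2 change 0.42, SE 0.10, adjusted p = 0.0114; not called after median-ratio scaling, adjusted p = 0.0745). Mtr, methionine synthase, had 38.9, 21.0, 32.4 and 34.8 FPKM in KDM1A KO libraries and 61.5, 55.9, 67.3 and 60.5 FPKM in Control libraries. It fell 1.93-fold (log2 change -0.96, SE 0.17, adjusted p = 0.00198), a change of -0.25 under equal totals (adjusted p = 0.357). Mat2b, a regulatory subunit of methionine adenosyltransferase, fell (log2 change -0.35, SE 0.09, adjusted p = 0.0138; 0.36 under equal totals, and not called with the highest entry alone, adjusted p = 0.102).

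Of 16 genes of NADPH supply 5 rose and 2 fell, against 25.3% and 12.1% of all genes. Nnt, the mitochondrial transhydrogenase, rose (log2 change 0.74, SE 0.12, adjusted p = 0.00123), as did the cytosolic enzymes Me1 (log2 change 0.42, SE 0.11, adjusted p = 0.0124), Idh1 (log2 change 0.29, SE 0.09, adjusted p = 0.0263) and Mthfd1 (log2 change 0.35, SE 0.11, adjusted p = 0.0306). None of these 3 was called after median-ratio scaling (adjusted p = 0.0909 for Me1, 0.205 for Idh1 and 0.134 for Mthfd1), nor was Idh1 after length centring (0.153) or with the highest entry alone, or Mthfd1 with the replicate number as a block (0.0745). On leaving out libraries, Idh1 lost the call without KDM1A KO replicate 1 or 3 or Control replicate 1 or 4 (adjusted p up to 0.0846) and Mthfd1 without KDM1A KO replicate 3 or 4 or Control replicate 2 or 3 (up to 0.0745). Nadk, the kinase that makes NADP, fell (log2 change -0.36, SE 0.07, adjusted p = 0.00498; 0.35 under equal totals), and so did Me2, a mitochondrial malic enzyme (log2 change -0.21, SE 0.07, adjusted p = 0.0339; 0.50 under equal totals, and lost without any library other than KDM1A KO replicate 2 and Control replicate 2, at up to 0.0932, or with the replicate number as a block).

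Of 36 other thiol and detoxifying enzymes 8 rose and 6 fell, against 25.3% and 12.1% of all genes. Nqo2, the relative of Nqo1, had 5.10, 6.24, 5.82 and 5.06 FPKM in KDM1A KO libraries and 1.32, 1.45, 1.18 and 1.22 FPKM in Control libraries. It rose 4.29-fold (log2 change 1.51, SE 0.10, adjusted p = 1.16e-05). Ptgr1, which reduces unsaturated aldehydes and ketones, rose (log2 change 1.36, SE 0.24, adjusted p = 0.00206), as did Qsox1, a sulfhydryl oxidase (log2 change 0.73, SE 0.16, adjusted p = 0.0066). The sestrins parted: Sesn3 rose (log2 change 0.53, SE 0.08, adjusted p = 0.00105) while Sesn2 fell (log2 change -0.67, SE 0.08, adjusted p = 0.000307; -0.00 and not called under equal totals). Pdia4, a protein disulfide isomerase, fell (log2 change -0.39, SE 0.09, adjusted p = 0.00625; 0.32 under equal totals).

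Of 11 other genes of selenium use 3 rose and none fell, against 25.3% and 12.1% of all genes. Sepp1, the secreted selenium carrier, had 12.0 ± 1.63 FPKM in KDM1A KO and 3.68 ± 0.603 FPKM in Control (log2 change 1.47, SE 0.12, adjusted p = 3.57e-05). The others were Selm (log2 change 0.75, SE 0.14, adjusted p = 0.00276) and Eefsec, the selenocysteine elongation factor (log2 change 0.42, SE 0.09, adjusted p = 0.00588). Of 12 genes of iron handling and ferroptosis 5 rose and none fell, against the same shares of all genes. Slc40a1, the iron exporter ferroportin, had 14.5, 12.1, 10.3 and 11.3 FPKM in KDM1A KO libraries and 3.94, 3.37, 3.56 and 4.14 FPKM in Control libraries (log2 change 1.45, SE 0.11, adjusted p = 2.38e-05), and Tfrc, the transferrin receptor that imports iron, had 90.6, 73.7, 73.7 and 84.1 FPKM in KDM1A KO libraries and 43.8, 48.2, 40.4 and 48.0 FPKM in Control libraries (log2 change 0.82, SE 0.10, adjusted p = 0.000225). In both the groups did not overlap, but with the highest entry of Tfrc alone the log2 change was 0.41 and not called (adjusted p = 0.36). Acsl4 (log2 change 0.70, SE 0.09, adjusted p = 0.000436; not called with the highest entry alone, adjusted p = 0.0781) and Lpcat3 (log2 change 0.42, SE 0.07, adjusted p = 0.00206), which load polyunsaturated fatty acids into membrane lipids, rose as well, as did the small heat shock gene Hspb1 (log2 change 1.22, SE 0.14, adjusted p = 0.000218).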

How the data were processed

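The table the authors deposited holds FPKM, fragments scaled to transcript length and library size, for 45550 transcript entries in 8 libraries, and FPKM are not counts. TopHat with Bowtie, then Cufflinks and Cuffdiff, on mm10, are named per the submitters' processing notes; the sources used here give no versions, annotation or strand setting. Per the labels' protocols, RNA of sorted cells was made into stranded mRNA libraries. Fragments that fit several transcripts are split among them by Cufflinks, and FPKM scale with the library total.

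Entries were summed to 17589 genes. Those averaging 1 FPKM or more were tested on log2(FPKM + 1), pseudocount 1, by limma 3.58.1 in R 4.3.3 (lmFit, eBayes with an intensity trend), KDM1A KO minus Control, two-sided, and called where the p adjusted by Benjamini-Hochberg over all 13483 genes was under 0.05. Log2 changes are on that scale and understate changes of low genes; folds are ratios of mean FPKM. The procedure was checked on simulated data.

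The redox genes and the other lists were chosen with earlier results of these data known. Named were Kdm1a, every called redox gene, the highest gene and that of smallest p in each role, up to 6 called genes of each related list by adjusted p, Nfe2l2 and Keap1; values per library are given for called genes without overlap and a higher mean of at least 5 FPKM, and for some others chosen after their values were seen, as were the marker genes shown. Positions come from GENCODE M21 (GRCm38), where 17257 genes were found; shared sequence is the share of stretches of 50 bases found in transcripts of other genes. Depth was taken as the fragment number that put most low FPKM of genes with a single transcript within 0.1 of a whole number of fragments (72.2% to 81.3% of values, against 20% by chance, with an assumed fragment of 150 bases), so that 1 fragment is a small step at the levels reported.

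Alternatives were a pseudocount of 0.1, no filter, median-ratio scaling, equal totals, the replicate number as a block, robust eBayes, the highest entry of a gene alone, values of 0 as missing and each library left out. Length-bin centring was added after the data had been seen.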

Additional observations from a re-analysis of the deposited data

Results flagged for a closer look

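Within groups of 4 libraries, 6 of 140 groups held a library farther from the others than Dixon's 95% criterion allows, where chance gives about 1 in 20 groups, or 7. Mgst3 reached 14.9 FPKM in KDM1A KO replicate 2, above the other KO libraries, and the rise is called without that library (adjusted p = 0.000243). Prdx3 was at 16.8 FPKM in Control replicate 4, above the other controls and below every KO library. Kdm1a was at 92.0 FPKM in Control replicate 3, above the other controls. Of the related genes, Ptgr1 reached 41.2 FPKM in KDM1A KO replicate 2 and Sesn3 23.9 FPKM in KDM1A KO replicate 1, and Lpcat3 was at 22.0 FPKM in Control replicate 2. The library in which Mgst3 and Ptgr1 stand out also read high in short transcripts; its part in these values was not tested.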

How the results depend on the processing

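Of 70 named genes, 35 kept their direction and side of the threshold under every alternative, and a pseudocount of 0.1, no filter, robust eBayes and values of 0 as missing changed no call among the 70. Under equal totals 50 redox genes rose and 1 fell, over all genes 9549 rose and 151 fell, and of the related genes 74 rose and 0 fell; the unscaled limma fit called 12 related genes lower and the median-ratio fit 18. The sign turned under equal totals for Gsr (0.087), Gss (0.38), Gstp2 (0.042), Txnrd3 (0.28), Msrb1 (0.64), Nadk (0.35), Me2 (0.50), Mafg (0.40), Mat2b (0.36) and Pdia4 (0.32), by construction, since this scaling shifts all genes up by about the same amount. Length-bin centring gave 11 falls among redox genes, 2806 among all genes and 22 among related genes, and turned Hmox2 to -0.20. Median-ratio scaling gave 2771 falls over all genes and 19 rises and 8 falls of redox genes. With the highest entry alone Idh1 was at -0.023, and Gss (adjusted p = 0.591), Mgst1 (0.0548), Txnrd2 (0.143), Tfrc (0.36), Acsl4 (0.0781), Mat2b (0.102) and Sqstm1 (0.148) were not called; the cause was not tested.

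Leaving out each library in turn gave 22 to 27 rises and 5 to 8 falls of redox genes, 2658 to 3855 and 1170 to 2025 over all genes, and 22 to 31 and 7 to 21 of related genes; the falls of related genes were 21 without KDM1A KO replicate 2 and 7 without Control replicate 3. Deviations of same-numbered libraries correlated at 0.22, -0.12, -0.13 and -0.09, where all pairings of KO with Control libraries ran from -0.33 to 0.25. Whether the numbers pair the samples cannot be told from these values. With the replicate number as a block 24 redox genes rose (Msra was lost, adjusted p = 0.0572) and 6 fell (Gss was lost, adjusted p = 0.0553), with 2983 and 1408 over all genes and 24 and 10 of related genes.

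FPKM keep no absolute scale, so directions are relative to the library total, and Mir5105 holds a large and unequal share of the summed FPKM. Depth is inferred and 0 to 1 FPKM is poorly resolved in short transcripts. Values of Gstp1, Gstp2, Gpx4, Prdx1, Glrx3, Gstm1, Sod1 and Gstt3 rest partly on sequence shared with other genes.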
